A study of Mus musculus with 38 samples.

Results

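The hypothalamus holds many small nuclei, and the transcription factors that lay them out in the embryo often stay on in the adult neurons of those nuclei. Of the 54165 genes in the count table, 10 such factors were followed here, found by their gene symbols: Sim1, Otp, Nr5a1, Fezf1, Lhx1, Six3, Six6, Isl1, Nkx2-1, and Rax. Their levels were compared between the hypothalamus (Hypo) and the prefrontal cortex (PFC), between the dissected Hypo samples, and between genotypes and sexes.

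RNA was sequenced in bulk from 18 Hypo and 20 PFC samples of adult FVB/NJ mice. The labels hold 25 mouse numbers, and 13 of them appear with both tissues. The mice were homozygous Ube3a2X animals, which carry 2 transgene copies of Ube3a with a tag at the C-terminal end in addition to their own gene, and wild-type (WT) littermates without the transgene. The Hypo gave 4 WT and 5 Ube3a2X libraries of each sex, and the PFC gave 5 libraries of each sex and genotype. The exposed Hypo was lifted out with tweezers and the PFC was taken as micropunches, and which nuclei each Hypo sample held is not given in the sources used here. In bulk tissue, fewer cells of a type and less RNA per cell cannot be told apart.

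Sim1 and Otp are needed for the neuroendocrine neurons of the paraventricular and supraoptic nuclei, among them those that make vasopressin and oxytocin. Nr5a1, the nuclear receptor also called SF-1, defines the ventromedial nucleus, and the zinc finger factor Fezf1 acts in the same neurons. Lhx1, Six3, and Six6 are linked to the suprachiasmatic nucleus and the anterior hypothalamus, Isl1 to neurons of the arcuate nucleus such as those of Pomc, Nkx2-1 to the ventral hypothalamus as a whole, and Rax to the early hypothalamus and the adult tanycytes that line the third ventricle.

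The 250 bases upstream of the start of Lhx1 and of Nkx2-1 are shown because Lhx1 was low in a few Hypo samples where Nkx2-1 stayed within its range. This choice was made after the values were seen. Both are RefSeq sequences of GRCm38.p6 from the minus strand, at chr11:84525535-84525784 for Lhx1 and chr12:56536909-56537158 for Nkx2-1, with matches to the searched motifs in capitals. The Lhx1 window holds 3 annotated exons of Lhx1os, a long noncoding RNA of the other strand, of up to 89 bases in the window, and shares 1 base with the first exon of Lhx1 in GENCODE. No annotated exon lies in that of Nkx2-1.
Lhx1: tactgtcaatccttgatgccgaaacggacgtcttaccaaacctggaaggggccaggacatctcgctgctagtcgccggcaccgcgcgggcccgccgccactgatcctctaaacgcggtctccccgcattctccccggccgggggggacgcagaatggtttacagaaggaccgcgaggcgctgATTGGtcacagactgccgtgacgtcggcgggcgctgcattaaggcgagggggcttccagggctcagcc
Nkx2-1: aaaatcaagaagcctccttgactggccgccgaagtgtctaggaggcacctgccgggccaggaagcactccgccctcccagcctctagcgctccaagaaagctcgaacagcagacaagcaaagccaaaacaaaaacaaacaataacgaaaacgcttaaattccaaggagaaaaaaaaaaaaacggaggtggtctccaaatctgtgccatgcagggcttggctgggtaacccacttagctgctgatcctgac
Both strands were searched for 4 motifs, of which Lhx1 held the CCAAT box, here on the opposite strand, and Nkx2-1 held none. Of the 32851 promoters of this length, 33.8% held the CCAAT box (letters CCAAT). The TATA box (letters TATAAA) was in 12.4% of them, a core of homeodomain sites (letters TAATTA) in 4.84%, and an E-box (letters CACGTG) in 6.02%. None of the motifs contains another. The Lhx1 window had 64.8% GC and 26 CpG sites and that of Nkx2-1 had 50.8% GC and 9 CpG sites, against medians of 52.4% and 6.0 over all promoters. Of the 10 genes, 8 had an entry in the promoter table, and Nr5a1 and Rax had none.

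The libraries held 39.0 to 380.8 M (mega) counted reads in the Hypo and 36.9 to 69.1 M in the PFC. Ube3a was at 115 to 383 counts per M reads (CPM) in WT and 810 to 1810 CPM in Ube3a2X Hypo libraries, and at 178 to 248 and 606 to 1850 CPM in the PFC, so its level matched the genotype label in each library. As a check of tissue, 6 cortical markers summed to 33.7 to 52.1 CPM in the Hypo and 1920 to 2360 CPM in the PFC. The Hypo library of WT female 471 stood apart, with 5110 CPM over 7 pituitary genes, led by Prl, where the other 17 reached at most 1020 CPM. It also had the lowest Ube3a, 117 CPM with TMM scaling, where each of the other 17 had at least 290 CPM. Arnt2 was at 182 CPM in it and at 327 to 375 CPM in the other 17. RIN, the score for RNA integrity, was 6.8 in WT male 423 and 8.8 to 9.3 in the other 17 Hypo libraries, so the RIN term of the Hypo fits rested mostly on that library.

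All 10 factors were present in every Hypo library and close to absent from the PFC. Otp, the most abundant, was at 23.2 to 58.3 CPM in the Hypo (median 39.4) and had 95 reads in the 20 PFC libraries together, a pooled 0.0852 CPM. Nkx2-1 was at 24.5 to 37.2 CPM (median 27.4) against 57 PFC reads, and Sim1 at 13.1 to 34.0 CPM (median 27.1) against 13 PFC reads. The ratio of the pooled Hypo level to the pooled PFC level was 479 for Otp (95% exact interval 392 to 593), 546 for Nkx2-1 (421 to 721), and 2300 for Sim1 (1340 to 4310). These intervals cover counting error only.

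Isl1 and Six6 were the scarcest in the PFC. Isl1 was at 22.4 to 33.6 CPM in the Hypo (median 26.7), and 17 of the 20 PFC libraries had 0 reads, with 4 reads in all and a ratio of 7230 (2820 to 26500). Six6 was at 10.5 to 23.2 CPM in the Hypo (median 13.7) and had 2 PFC reads in all, 0 in 18 libraries, with a ratio of 7570 (2100 to 62500). The wide intervals follow from the few PFC reads, so the order of these ratios is not resolved. Six3 had 8 PFC reads and a ratio of 4670 (2370 to 10800), Lhx1 10 reads and 1900 (1030 to 3970), Fezf1 22 reads and 1060 (700 to 1690), and Nr5a1 39 reads and 468 (342 to 658).

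Rax was the exception in level. It was at 1.17 to 4.17 CPM in the Hypo (median 1.56), with 77 to 503 reads per library, and had 43 PFC reads, up to 8 in a library, for a ratio of 43.7 (32.3 to 60.5). No PFC library stood out over the 10 genes together, with 3 to 27 reads each.

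**Figure D1:**
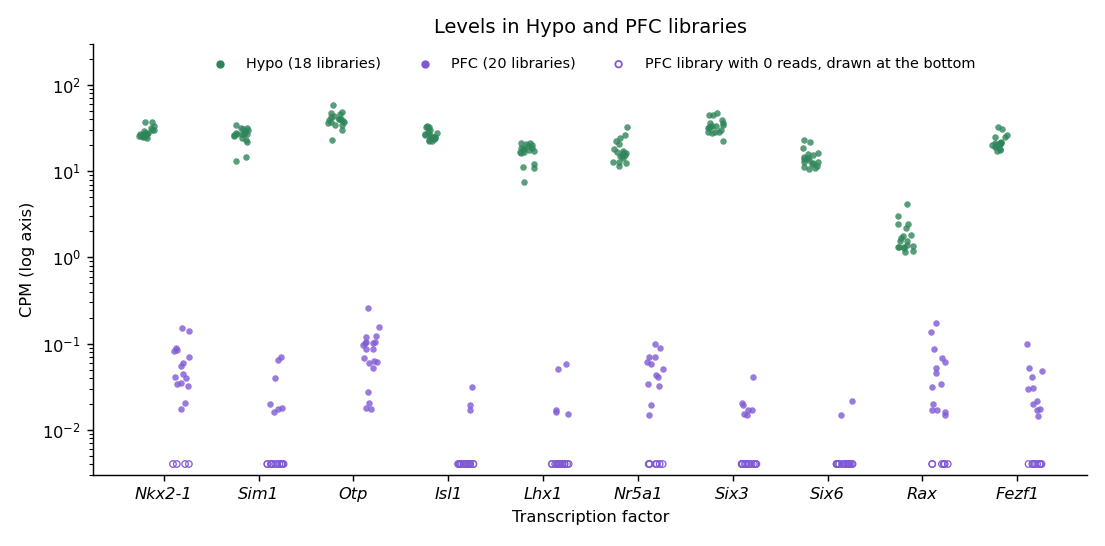
CPM (log axis) of the 10 transcription factors in 18 Hypo libraries and 20 PFC libraries, one point per library, with PFC libraries at 0 reads drawn as open circles at the bottom. No PFC library reached the lowest Hypo library for any of the 10 genes, and Rax had the lowest Hypo levels, 1.17 to 4.17 CPM.

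In the edgeR fit over both tissues, 10 of the 10 factors were called higher in the Hypo, as were 32.4% of the 22282 genes tested (adjusted p under 0.05, Benjamini-Hochberg). None of the 10 would have passed the count filter in the PFC alone, so each entered the test through its Hypo reads and that count was fixed by the filter. In either direction 14116 genes were called. In the 13 mice with both tissues 11152 genes and 10 factors were called with no mouse term, and 7678 genes and 9 factors with mouse as a fixed block. Six6, with 2 PFC reads, was the one not called under the block, with a log2 difference of 10.35 (SE 8.6, adjusted p = 0.621).

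The genotype contrast in the PFC was not fitted, because no factor passed the filter there. Otp had 32 reads in the 10 Ube3a2X and 63 reads in the 10 WT PFC libraries (1 to 6 and 1 to 12 reads per library), and Nkx2-1 had 38 and 19 reads (0 to 10 and 0 to 4). The ranges of both genes overlapped.

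Per kilobase of exon, which allows genes to be compared, the median Hypo level was 13.7 CPM for Otp, 9.63 for Nkx2-1, 8.71 for Fezf1, 6.73 for Isl1, 6.05 for Six3, 4.36 for Lhx1, 3.85 for Nr5a1, 3.41 for Six6, 3.14 for Sim1, and 0.266 for Rax. Fezf1 was above Isl1 and Sim1 above Rax in 18 of 18 libraries. The other neighbours in this order kept it in 12 to 17 of 18 libraries, and except for Sim1 and Rax the ranges of neighbours overlapped.

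A list of 28 other hypothalamic transcription factors also held some with more reads in the PFC. Of these, 22 were called higher and 5 lower in the Hypo than in the PFC, and the list's median log2 difference was 3.88 beside 0.02 over all genes tested. Its 5 most abundant members in the Hypo were Arnt2, the partner protein of Sim1, with a median of 357 CPM against 697 in the PFC, Pou3f2 with 39.0 against 54.9, Dlx1 with 31.8 against 21.2, Foxb1 with 23.6 against 0.0, and Tbx3 with 16.3 against 2.67. Foxb1, a factor of the mammillary region, was the only one of these 5 with 0 reads in each PFC library.

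The spread between Hypo libraries was widest for Rax, Lhx1, and Sim1 and narrowest for Nkx2-1. The coefficient of biological variation estimated by edgeR within groups was 13.5% for Nkx2-1, 14% for Isl1, and 14.9% for Fezf1, which lay at the 52.7th, 55.8th, and 60.5th percentile of genes within 1.5-fold of their level. It was 23.9% for Lhx1 and 22.4% for Sim1, at the 89.8th and 89.9th percentile of such genes. Otp (17.5%), Six3 (18.2%), Nr5a1 (19.6%), and Six6 (19.6%) lay between, at the 77.3rd to 81st percentile. Rax, with the fewest reads, was at 31.8% and the 87.4th percentile.

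**Figure D2:**
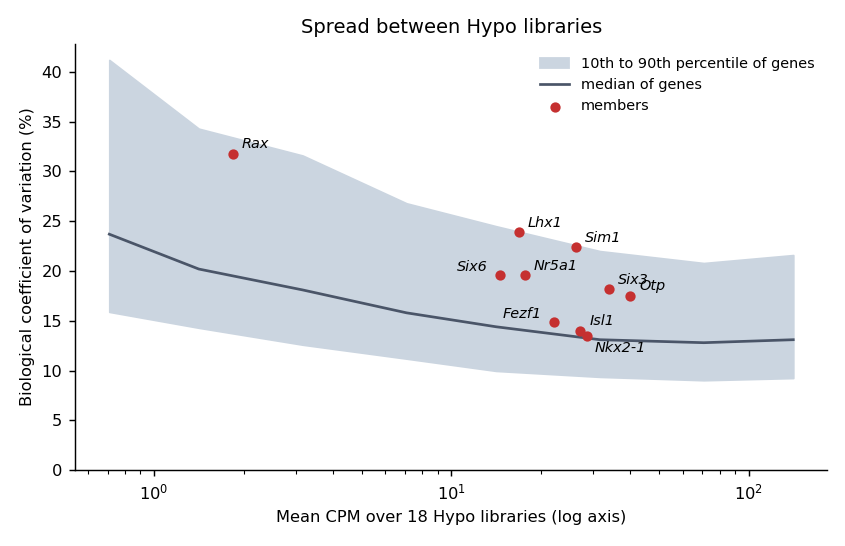
Coefficient of biological variation (percent) against mean CPM over 18 Hypo libraries (log axis), red points for the 10 factors, grey line and band for the median and the 10th to 90th percentile of genes in bins of level. Lhx1 (23.9%) and Sim1 (22.4%) lay at the upper edge of the band and Nkx2-1 (13.5%) near the median.

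Lhx1 was low in 4 libraries. It was at 7.58 CPM in WT male 245, 11 in WT male 251, 11.2 in WT female 471, and 12 in Ube3a2X male 404, and at 16.5 to 21.5 CPM in the other 14. Sim1 was lowest in the same 4, at 13.1, 21.8, 14.6, and 23.3 CPM in that order, against 24.4 to 34.0 CPM in the other 14. Isl1 and Six3 were highest in these 4 libraries. Isl1 was at 32.0 to 33.6 CPM there and at 22.4 to 30 CPM elsewhere, and Six3 at 39.5 to 47.6 CPM there and at 22.3 to 36.4 CPM elsewhere.

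Nkx2-1 was not set apart in these 4, at 24.8 to 37 CPM against 24.5 to 37.2 CPM. Because the 4 libraries were picked by their Lhx1 value after it was seen, they were not tested against the rest. Over the 21311 genes kept by filterByExpr, 0.985% had all 4 below the other 14 and 0.235% had all 4 above. Depth moved with the split. WT female 471 (39.05 M), Ube3a2X male 404 (44.72 M), and WT male 245 (55.56 M) had fewer reads than any of the other 14 (62.7 to 380.8 M), and WT male 251 had 70.6 M. The share of reads on the correct strand was 95.7% in WT female 471 against 96.5 to 99.0% in the 14. RIN (8.8 to 9.3 against 6.8 to 9.3) and intronic bases (4.36 to 8.41% against 3.88 to 9.52%) overlapped. The 5' to 3' bias was 0.489 in WT female 471 and 0.943 in WT male 251, below and above the 0.516 to 0.914 of the 14. The part of depth and of these measures in the split was not tested.

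The 4 libraries were not alike in other genes. The mammillary marker Foxb1 was at 3.58 CPM in WT male 245, 5.82 in WT male 251, and 8.40 in Ube3a2X male 404, below the 19.6 to 35.0 CPM of the other 14, and at 31.2 CPM in WT female 471. The same 3 males had high Six6, at 22.1, 23.2, and 18.6 CPM against 10.5 to 16.2 in the 14, and high Fezf1, at 32.3, 31.1, and 26.2 CPM against 17.0 to 24.7. WT female 471, with Six6 at 14.8 and Fezf1 at 20.8 CPM, was within both ranges.

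WT female 471 had instead the highest Otp of the 18 libraries (58.3 CPM) and the highest Rax (4.17 CPM). It also had the highest Avp, the vasopressin gene, at 429 CPM against 45.6 to 157 in the 14, the highest Oxt, the oxytocin gene, at 187 CPM against 2.90 to 88.4, and the highest Pmch, a peptide gene of the lateral hypothalamus, at 1280 CPM against 206 to 589. The part of dissection in these differences was not tested.

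**Figure D3:**
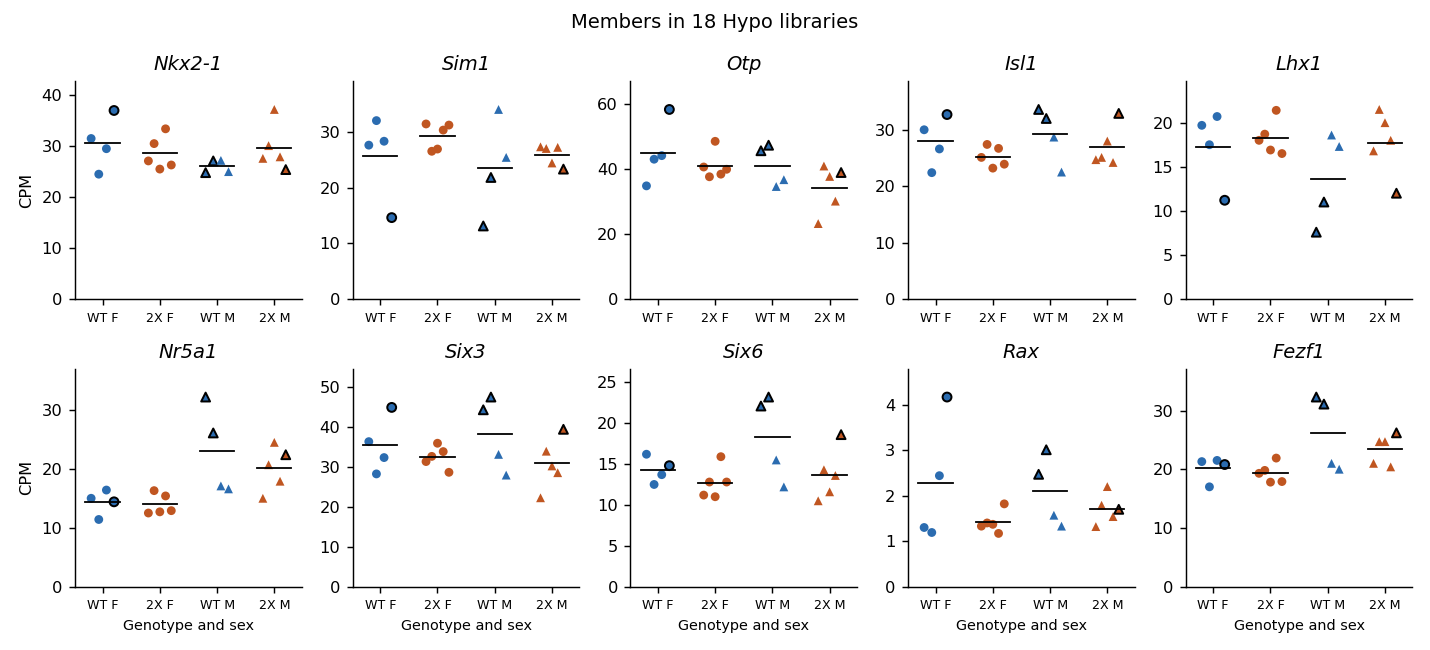
CPM of the 10 factors in the 18 Hypo libraries by genotype (WT blue, Ube3a2X, written 2X, orange) and sex (F circles, M triangles), with group means as lines and black outlines for the 4 libraries of lowest Lhx1. The outlined libraries are lowest in Lhx1 and Sim1, highest in Isl1 and Six3, and within the range of the others in Nkx2-1.

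Nr5a1 and Fezf1, both factors of the ventromedial nucleus, had the highest correlation of the 45 pairs. Across 18 libraries their log2-CPM values correlated with r = 0.95 and rho = 0.83 (permutation p = 1e-05, the smallest 100000 permutations can give, and adjusted p = 0.00045 over 45 pairs). The correlation was 0.91 without the 2 libraries farthest from the Nr5a1 median, 0.90 in the 14 libraries, and 0.92 after removing group means. Nr5a1 ranged from 11.4 CPM in WT female 398, which also had the lowest Fezf1 (17.0), to 32.2 CPM in WT male 245, which also had the highest Fezf1 (32.3).

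Of the 45 pairs 27 passed at an adjusted p under 0.05, 15 with a positive and 12 with a negative r, and each negative one held Sim1 or Lhx1. Among the 28 pairs without these genes, a division made after the values were seen, 14 passed at an adjusted p under 0.05, all 14 with a positive r. By rho 6 of all 45 pairs passed at an adjusted permutation p under 0.05. All 6 were among the 28, so no pair that held Sim1 or Lhx1, and none with a negative r, passed by rho. In the 14 libraries 4 of the 28 passed by r, of which 1 was among the 14 pairs. The share of passing pairs among all genes was not computed. Isl1 with Six3 (r = 0.79, rho = 0.77), Isl1 with Six6 (r = 0.78, rho = 0.73), and Six3 with Six6 (r = 0.79, rho = 0.74) each had an adjusted permutation p = 0.00108. In the 14 libraries their r was 0.46, 0.55, and 0.56, and none of these 3 passed there (adjusted permutation p = 0.242, 0.119, and 0.109). Otp and Six3 had r = 0.74 and rho = 0.57 (adjusted permutation p = 0.00321), with r = 0.67 in the 14 libraries (adjusted p = 0.0913).

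The libraries fell into 2 clusters for Lhx1, 4 low and 14 higher, and its r is given both over all 18 and within the 14. Over the 18 libraries Lhx1 had r = -0.59 with Fezf1 (rho = 0.01, adjusted permutation p = 0.0241) and r = 0.84 with Sim1 (rho = 0.48, adjusted permutation p = 0.00112). In the 14 libraries, a set cut on Lhx1 itself after its values were seen, the first turned to r = 0.77 (adjusted permutation p = 0.0171) and the second was r = -0.13 (adjusted permutation p = 0.778). Sim1 was lowest in the same 4 libraries, of which WT male 251 (21.8 CPM) and Ube3a2X male 404 (23.3 CPM) lay next to the lowest of the other 14 (24.4 CPM). Its pairs with Isl1 (r = -0.67, rho = -0.51, adjusted permutation p = 0.0055) and Rax (r = -0.72, rho = -0.56, adjusted permutation p = 0.009) passed over the 18 libraries, with r = -0.45 and -0.51 without the 2 libraries farthest from the median. In the 14 libraries r was 0.002 with Isl1 (adjusted permutation p = 0.996) and -0.24 with Rax (adjusted permutation p = 0.609).

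In the 14 libraries Nkx2-1 correlated with Lhx1 (r = 0.76) and Fezf1 (r = 0.78), each with an adjusted permutation p = 0.0171, and with Isl1 (r = 0.73, adjusted permutation p = 0.0235) and Nr5a1 (r = 0.69, adjusted permutation p = 0.0447). Over all 18 libraries Nkx2-1 passed with none of the 9 other factors. In all, 6 of the 45 pairs passed in the 14 libraries. Only 2 pairs passed in both, Nr5a1 with Fezf1 with the same sign and Lhx1 with Fezf1 with opposite signs.

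**Figure D4:**
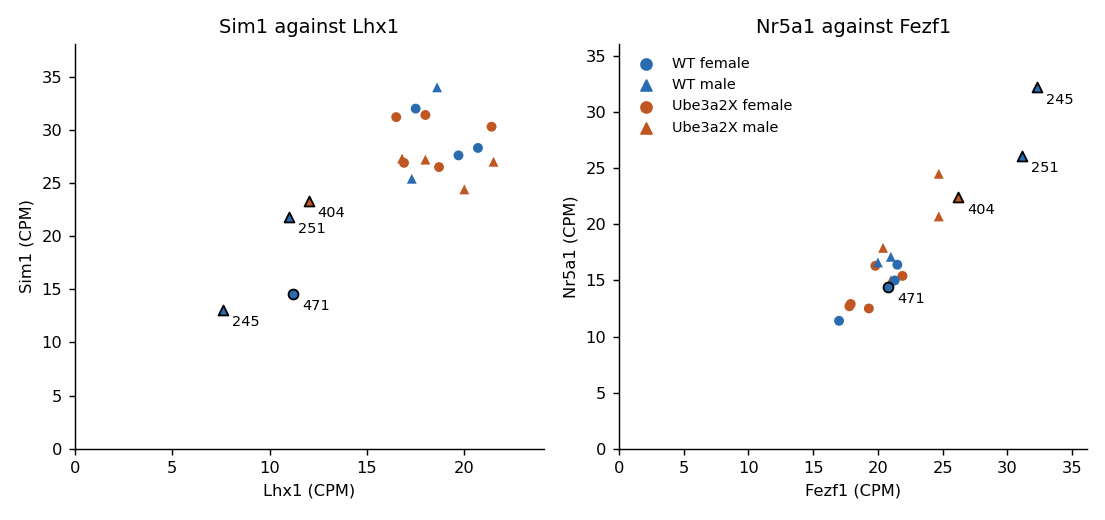
Sim1 against Lhx1 (left) and Nr5a1 against Fezf1 (right), in CPM, one point per Hypo library, colour for genotype, shape for sex, and the 4 libraries of lowest Lhx1 outlined and numbered. On the left these 4 lie apart from the other 14, and on the right the 18 libraries lie along a line, with r = 0.95 on the log2 scale.

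The factors were then set beside markers of nuclei and neighbouring tissues, 13 lists and 130 relations in all. Of these, 22 passed at an adjusted p under 0.05 over the 18 libraries and 5 in the 14 libraries, with 4 in both. The share of all genes that would pass with these lists was not computed. Otp moved with the genes of the paraventricular and supraoptic nuclei, Avp, Oxt, Crh, Trh, and Brs3 (r = 0.84, rho = 0.69, adjusted permutation p = 0.0052). The r was 0.53 without the 2 libraries farthest from the list's median and 0.81 in the 14 libraries (adjusted p = 0.0437). Otp also passed with the arcuate (r = 0.74, adjusted permutation p = 0.0206), pituitary (r = 0.72, 0.0175), ependymal (r = 0.69, 0.0334), and lateral hypothalamic lists (r = 0.63, 0.0408), none of which passed in the 14 libraries. It moved too with 6 striatal genes led by Rgs9 (r = 0.88, rho = 0.70, adjusted permutation p = 0.0013, r = 0.84 in the 14 libraries), whose sum was 77.6 to 101 CPM in the Hypo and 55.9 to 124 CPM in the PFC. Sim1, the other factor of the paraventricular nucleus, gave r = -0.30 with the list of that nucleus over the 18 libraries (rho = 0.12, adjusted permutation p = 0.374) and r = 0.39 in the 14 (adjusted permutation p = 0.435), and passed in neither.

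Nr5a1 and Fezf1 moved with the list of tanycyte genes. With the 5 tanycyte genes, led by Col23a1, Nr5a1 had r = 0.91 and Fezf1 r = 0.85 (adjusted permutation p = 0.00065 for each), and in the 14 libraries r = 0.85 and 0.82 (adjusted p = 0.0169 for each). With 7 ventromedial markers, led by Dlk1, r was 0.52 for each (adjusted permutation p = 0.095), and 0.20 and 0.12 in the 14 libraries. The difference between these correlations was not tested. Rax, the factor known from tanycytes, had r = 0.24 with the tanycyte genes (adjusted permutation p = 0.49) and 0.41 in the 14 libraries (adjusted p = 0.416). It passed with the arcuate (r = 0.70, adjusted permutation p = 0.0175) and striatal lists (r = 0.67, adjusted permutation p = 0.0175), with r = 0.14 and 0.36 in the 14 libraries. Of the tanycyte genes, 2 were called higher and 3 lower in the Hypo than in the PFC, so the list is not one of tanycytes alone. Of the 7 ventromedial markers, 4 were called higher and 3 lower, so that list is not one of the ventromedial nucleus alone either.

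Isl1 moved with the arcuate list of Pomc, Agrp, Npy, Ghrh, Kiss1, and Tac2 across 18 libraries (r = 0.57, rho = 0.60, adjusted permutation p = 0.0473), but r was 0.25 in the 14. Six3 moved with the suprachiasmatic list led by Vip (r = 0.70, rho = 0.72, adjusted permutation p = 0.0146), with r = 0.65 in the 14 libraries (adjusted p = 0.201). Six3 also passed with the arcuate (r = 0.72, adjusted permutation p = 0.0167), thalamic (r = 0.68, 0.0194), striatal (r = 0.66, 0.0336), and pituitary lists (r = 0.63, 0.0391), and Lhx1 had r = -0.35 with the suprachiasmatic list (adjusted permutation p = 0.269). Six6 had r = 0.62 and rho = 0.86 with that list (adjusted permutation p = 0.0514) and r = 0.64 in the 14 libraries (adjusted p = 0.0965).

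The list that the largest number of factors passed with over the 18 libraries was the mammillary list, led by Foxb1, with 5. Over the 18 libraries r was 0.74 for Lhx1 (adjusted permutation p = 0.0207), -0.75 for Fezf1 and -0.73 for Six6 (adjusted permutation p = 0.0175 each), -0.70 for Nr5a1 (adjusted permutation p = 0.0194), and -0.60 for Isl1 (adjusted permutation p = 0.0462). In the same order rho over the 18 libraries was weaker, 0.45, -0.31, -0.32, -0.38, and -0.39. In the 14 libraries r was 0.37, 0.10, 0.02, 0.11, and -0.30, and none passed. Nr5a1 also passed with the lateral hypothalamic list (r = -0.63, rho = -0.72, adjusted permutation p = 0.0367), with r = -0.70 in the 14 libraries (adjusted p = 0.0914) and r = -0.42 after removing group means (adjusted p = 0.191). Isl1 with the cortical list passed in the 14 libraries alone (r = -0.77, adjusted permutation p = 0.0437), against r = -0.48 over the 18 (adjusted p = 0.135). After removing group means, 5 other relations that passed over the 18 libraries also missed the threshold, Nr5a1 with the mammillary list (adjusted permutation p = 0.0802), Isl1 with the mammillary (0.0506) and arcuate lists (0.0618), and Otp with the lateral hypothalamic (0.155) and ependymal lists (0.0832).

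Searched over 15557 genes with a mean of at least 1 CPM, the gene most like Nr5a1 was Fezf1 and the gene most like Fezf1 was Nr5a1 (r = 0.95, 18 libraries). Next to Nr5a1 came Kcnip2 (0.94) and Camkv (0.93), and next to Fezf1 Qrfpr (0.92) and 9130024F11Rik (0.89). The genes most like Otp were Adrb1 (0.94), B3galt6 (0.92), and Nrarp (0.92). In the 14 libraries their r was 0.90 to 0.94, but they ranked only 22, 42, and 112 there. For Isl1 they were Klf5 (0.89), 4933412E12Rik, and Amigo2 (0.88 each), for Six3 Mcub, Nr2f2 (0.86 each), and Pecr (0.85), for Six6 C130093G08Rik (0.88) and Id4 (0.82), for Rax Lamb3, Klhdc8b (0.85 each), and Rem2 (0.84), and for Nkx2-1 Klhl30 (0.77), Isoc2b, and Tmem145 (0.74 each).

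Gpr139 (0.94), Oip5os1 (0.92), and 1110015O18Rik (0.91) were nearest to Sim1, and B230323A14Rik (0.93), Smyd1, and Tanc1 (0.92 each) to Lhx1. In the 14 libraries the r of the genes named was 0.17 to 0.45 for Lhx1, 0.66 to 0.71 for Sim1, and 0.56 to 0.71 for Nkx2-1. It was 0.52 to 0.73 for Rax, 0.63 to 0.77 for Six3, 0.63 and 0.66 for Six6, and 0.79 to 0.80 for Isl1. Their ranks there were 398 to 3997 for Lhx1, 170 to 400 for Sim1, 34 to 218 for Nkx2-1, and 12 to 424 for Rax. For Six3 the ranks were 108 to 1220, for Six6 174 and 109, and for Isl1 8 to 13. Nr5a1 and Fezf1 ranked 3 for each other. These correlations are descriptions, since both genes of each pair were measured in the same libraries and share their depth and dissection.

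No genotype contrast in the Hypo called any of the factors. The Hypo fit of the study's model, which holds both factors with their interaction and corrects for RIN and 2 surrogate variables, tested 9 of the 10 factors, Rax being removed by the low count filter. Averaged over the sexes, 0 of the 9 were called by edgeR, beside 0.00843% of 11869 genes (1 gene), with 622 genes and 1 factor at an unadjusted p under 0.05. That factor was Six6, with a log2 difference of -0.34 for Ube3a2X minus WT (95% interval -0.65 to -0.03, adjusted p = 0.917). DESeq2 and limma-voom called 0 factors as well, and in the fit that kept Rax its log2 difference was -0.32 (SE 0.177, adjusted p = 0.819).

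Ube3a was the 1 gene called when averaged over the sexes, with a log2 difference of 1.97 (edgeR adjusted p = 0.000599). In males Ube3a itself, at 1.79, did not pass (edgeR adjusted p = 0.0719).

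In males 0 of the 9 were called, beside 0% of genes (0 by edgeR, 17 by DESeq2), with 1092 genes and 3 factors at an unadjusted p under 0.05. Six6 was at 15.5, 12.2, 22.1, and 23.2 CPM in WT and at 10.5, 14.3, 11.6, 13.6, and 18.6 CPM in Ube3a2X males, a log2 difference of -0.51 (-0.94 to -0.07, adjusted p = 0.524). The groups overlapped, and the 2 highest WT values were WT males 245 and 251. Six3 gave -0.37 (-0.72 to -0.02) and Otp -0.29 (-0.55 to -0.03), both with an adjusted p = 0.524. Without the 4 libraries of lowest Lhx1 these became 0.08 for Six6, 0.01 for Six3, and -0.18 for Otp, none with an unadjusted p under 0.05. The median of the 9 was -0.26 with 3 positive, beside -0.02 over all genes, and without the 4 libraries 0.05 with 6 positive.

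The estimate for Lhx1 in males was positive. Lhx1 was at 7.58, 11, 18.6, and 17.3 CPM in WT and at 16.8, 21.5, 20, 18, and 12 CPM in Ube3a2X males, a log2 difference of 0.44 (-0.13 to 1.01, adjusted p = 0.588). The fit after filterByExpr gave 0.70 (edgeR adjusted p = 0.373), and leaving out WT male 245 gave 0.149 (edgeR adjusted p = 0.83). Leaving out WT male 403 made it 0.96 (adjusted p = 0.045), the only alternative run in which a genotype contrast called a factor, and leaving out the 4 libraries made it 0.09 (adjusted p = 1).

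In females 0 of the 9 were called, beside 0.00843% of genes (1 gene), and 348 genes but none of the 9 had an unadjusted p under 0.05. The median of the 9 was -0.03. The log2 differences ran from -0.17 for Six6 (-0.58 to 0.25) to 0.03 for Otp (-0.22 to 0.27). For the interaction, the effect in males minus that in females, 0 of the 9 were called, beside 0% of genes (0 by edgeR, DESeq2, and limma-voom), with 819 genes but 0 factors at an unadjusted p under 0.05. The interval was -0.92 to 0.25 for Six6 and -0.26 to 1.21 for Lhx1.

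**Figure D5:**
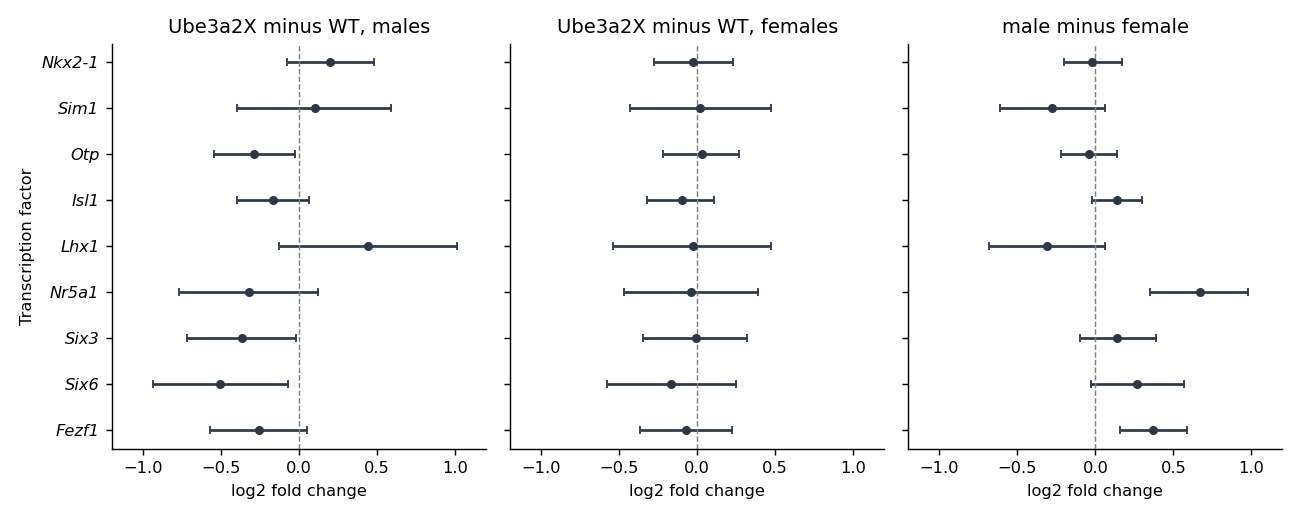
Log2 fold changes of 9 factors in the Hypo with 95% intervals, for Ube3a2X minus WT in males (left) and females (middle) and for male minus female (right), from the edgeR fit with RIN and 2 surrogate variables. Of these, Nr5a1 in the right panel, 0.67 (0.35 to 0.98), was the only one with an adjusted p under 0.05.

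Nr5a1 was higher in males. It was at 11.4 to 16.4 CPM in the 9 female libraries (median 14.4) and at 15 to 32.2 CPM in the 9 male libraries (median 20.7), and the ranges overlapped. The log2 difference was 0.67 (SE 0.141, 95% interval 0.35 to 0.98, edgeR adjusted p = 0.0254), which made Nr5a1 the 1 factor called of 9, beside 2.3% of genes (273 genes). Fezf1 was at 17.0 to 21.9 CPM in females and 20 to 32.3 CPM in males, a log2 difference of 0.37 (0.16 to 0.59, adjusted p = 0.0586), and was called by DESeq2 (adjusted p = 0.00647). Of the other 7 factors, Lhx1 had -0.31 (-0.68 to 0.06) and Nkx2-1 -0.02 (-0.20 to 0.17). In the fit that kept Rax its log2 difference was 0.42 (SE 0.173, adjusted p = 0.303). Of the 28 other hypothalamic factors, 19 were tested in the Hypo and 0 were called for sex, genotype, or the interaction.

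The call for Nr5a1 was lost under several alternatives. Without the 4 libraries of lowest Lhx1, 3 of which were male, it was 0.40 (adjusted p = 0.178). It was also lost when any of WT male 245, WT male 251, Ube3a2X male 258, WT female 262, or WT female 398 was left out (0.57 to 0.73, adjusted p = 0.0589 to 0.0804), with RIN as the only covariate (0.652, adjusted p = 0.0647), and with no covariate (0.599, adjusted p = 0.0755), and only without the 4 libraries was the difference below 0.567. The tanycyte genes, with which Nr5a1 correlated, summed to 72.3 to 113 CPM in females and 100 to 167 CPM in males, and Crym of that list, named after its value was seen, had a log2 difference of 0.74 (adjusted p = 0.0411, edgeR). The mammillary genes summed to 46.8 to 70.2 CPM in females and 11.2 to 65.6 CPM in males, and the part of either in the sex difference was not tested.

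Several of the genes share their locus with a gene of the opposite strand, and the strand setting of the count was not given in the sources used here. Six3 (chr17:85613608-85629302) had 52865 Hypo reads and Six3os1, its opposite-strand neighbour, 34168, and Six6 (chr12:72939892-72944899) had 21402 where 4930447C04Rik had 22145. Reads of these 2 genes could have been shared with them. Across the 18 libraries r with the neighbour was 0.14 for Six3 and 0.39 for Six6. Six3os1 was at 31.2, 31.3, and 30.6 CPM in WT male 245, WT male 251, and Ube3a2X male 404, above the 19.5 to 22.4 CPM of the 14 libraries, and at 11.5 CPM in WT female 471, so it was high in 3 of the 4 libraries of highest Six3 and lowest in the other. For Nkx2-1 (chr12:56531958-56536908) and Nr5a1 (chr2:38692656-38714542) the opposite-strand genes had 1773 and 794 reads against 43969 and 25809.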

How the data were processed

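Stranded paired-end mRNA libraries of PFC and Hypo were sequenced by the authors, aligned to GRCm38 with STAR, and counted on Gencode genes with featureCounts. The deposited table holds read counts without normalization. A deposited quality table gives the RIN score, shares as a fraction (converted to percent here), and the transcript end bias as a ratio, which the authors made with Picard. No column of the count table was left without a sample (0 columns).

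For the Hypo fits a gene was dropped if 2 or more libraries had under 100 reads for it, and then the 15% of lowest variance were dropped. edgeR 4.0.16 (TMM, robust quasi-likelihood) was fitted in R 4.3.3 with 4 groups, RIN, and 2 surrogate variables (sva 3.50.0), and the tissue fit with 8 groups and RIN after filterByExpr. Intervals use the SE and 11 residual degrees of freedom. p-values were adjusted by Benjamini-Hochberg over all genes tested, or over the pairs or relations. Alternatives used DESeq2 1.42.0 and limma 3.58.1. Hypo levels of single genes are TMM-scaled CPM. The Ube3a ranges of the label check, the sums over lists, the pooled levels, and all PFC levels are counts per M total reads without TMM. Hypo and PFC medians set side by side therefore differ in scaling, with Hypo TMM factors of 0.963 to 1.02. Correlations used log2-CPM with a prior count of 2 and two-sided permutation tests (numpy 2.4.6). Fits and permutations were tested on simulated data. GENCODE vM21 gave positions and exon lengths.

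Tissues with the same number in the labels, which shared genotype and sex, were taken as the same mouse, though the sources used here do not state it. Their deviations from the group means correlated at -0.365 to 0.307 over 13 numbers (median 0.00499), 2 of them over 0.1. Squared count differences between libraries of a group were 12.7 to 451 times sampling noise over 72 pairs. p-values measure the spread between these samples.

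The members and lists were chosen with earlier results of these data known. Genes named beyond the members are Ube3a, the 3 genes most like each member, the 5 most abundant other factors, and the leading genes of the lists. Results of some genes that this rule names are not reported here. Genes outside this rule (Crym, Oxt, Six3os1, and 4930447C04Rik), and the 4 libraries of lowest Lhx1, were chosen after the values were seen.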

Additional observations from a re-analysis of the deposited data

Results flagged for a closer look

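Within the 4 Hypo groups, each factor was checked for a library far from the others, 40 groups in all, and chance flags about 1 in 20 of such groups. The check marked 2. Otp was at 48.5 CPM in Ube3a2X female 420, the deepest library, where the other Ube3a2X females had 37.6 to 40.6 CPM. Fezf1 was at 17.0 CPM in WT female 398, where the other WT females had 20.8 to 21.5 CPM.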

How the results depend on the processing

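The calls of all 10 factors between tissues kept direction under each alternative and stayed past the threshold except for Six6 (10.35, SE 8.6) with mouse as a fixed replicate block in 13 mice, where 7678 genes were called. Each factor had entered the main fit through its Hypo reads, so these repeated calls are no test of the difference. The same 13 mice with no mouse term, added after seeing the data, gave 11152 genes and 10 factors. limma-voom with mouse as a random block gave 14074 genes and 10 factors. For genotype in the Hypo, DESeq2 called 5 genes, and 17 in males and 3 in females. filterByExpr gave 2 genes, and 3 in females. In males, limma-voom, 1 surrogate variable, and no covariates gave 1 gene each. Leaving out 1 library at a time gave 1 to 12 genes for genotype, 0 to 49 in males (0 to 1 factors), and 0 to 2 in females, with the highest counts without WT male 403, except in females, where it was without Ube3a2X female 462. For sex, DESeq2 called 662 genes and 2 factors, RIN alone 7 genes and 0 factors, no covariates 12 genes and 0 factors, and 1 surrogate variable 111 genes, and leaving out 1 library 83 to 663 genes and 0 to 4 factors (lowest without WT female 398, highest without WT male 403, where Sim1 at -0.47 and Lhx1 at -0.53 also passed). Without the 4 libraries of lowest Lhx1, chosen after seeing the data, the genotype contrast called 0 genes, that in females 0, and that of sex 119 genes and 0 factors, with fewer samples in each fit.

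Of the 45 pairs, 12 (without WT male 245) to 30 (without WT female 471) passed when 1 library was left out, and 6 in the 14 libraries, where 5 of the 130 list relations passed. In those 14 the r changed sign for Sim1 with Isl1 (0.002), Lhx1 (-0.13), Six3 (0.074), and Six6 (0.32), for Lhx1 with Isl1 (0.61), Nr5a1 (0.58), Six3 (0.55), Six6 (0.64), Rax (0.33), and Fezf1 (0.77), and for the mammillary list with Nr5a1 (0.11), Six6 (0.023), and Fezf1 (0.098). The cause was not tested. In the Hypo 9 factors had 424 reads or more per library, while Rax (77 or more) and all PFC values rest on few reads.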
